A study of Rattus norvegicus with 21 samples.

Results

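Astrocytes panned from the forebrain of Sprague Dawley rat pups and grown for 7 days with HBEGF were compared with astrocytes taken at the same age and lysed without culture. The comparison takes the 3 arrays of cultured P1 cells (HBEGF P1 cultures) and the 3 arrays of freshly isolated P1 cells (fresh P1 cells), chosen by their titles, which makes 6 of the 21 arrays of the series. HBEGF P1 cultures came from postnatal day 1 pups, were isolated by immunopanning with an antibody to the integrin ITGB5 and received HBEGF at 5 ng/ml for 7 days. Fresh P1 cells were isolated in the same way at postnatal day 1 and carry no treatment. To ask whether the response to culture depended on age, HBEGF P7 cultures and fresh P7 cells, 3 arrays each and prepared likewise from 7-day-old rats, were used as well. No genetic change is given for any of these groups, and the labels call the arrays of a group biological replicates without saying how many pups each one pooled. HBEGF, the culture medium, the dish and the added 7 days of age all separate the cultures from the fresh cells. So does the time since dissociation and panning, as fresh cells were lysed without culture and the cultures had 7 further days. No P1 culture without HBEGF in otherwise equal conditions was analysed here, so the effects of these factors cannot be told apart. For the HBEGF P7 cultures 1 label field names day 1, whereas title and source name give day 7, which was followed.

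HBEGF is a membrane-anchored growth factor that is cut loose and then binds the epidermal growth factor receptor (EGFR), a receptor tyrosine kinase that astrocytes carry from early development. EGFR signals through the RAS and MAPK cascade to transcription factors at promoters of immediate-early genes, and it is held in check by phosphatases and Sprouty proteins that the same cascade induces. Immediate-early genes are switched on within minutes by growth factors, neuronal activity, stress or the dissociation of tissue, and their transcripts decay quickly. Astrocytes in the brain take up glutamate and GABA, buffer potassium, handle thyroid hormone and supply cholesterol to neurons.

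Each array gave 1 intensity per probe set, made comparable between arrays with RMA by the authors, and levels are given as log2 intensity. One probe set stood for each of 14217 genes. A gene was called at an adjusted p of limma under 0.05 (Benjamini-Hochberg over all probe sets) together with a log2 change of at least 1, which is a 2-fold change. Every log2 change is that of HBEGF P1 cultures minus fresh P1 cells unless another contrast is named, and SE is limma's moderated standard error. By this rule 1261 genes (8.87%) changed, 622 higher (4.38%) and 639 lower (4.49%) in HBEGF P1 cultures. These shares are the comparison for the list counts that follow, and no list was tested as a set. The median log2 change of all genes was 0.03 and the median SE was 0.17. Falls reached further than rises, with 161 genes over 4-fold lower against 94 over 4-fold higher, and 27 over 16-fold lower against 6 over 16-fold higher. Arrays of 1 group were close to each other, with Spearman correlations across probe sets of 0.986 to 0.989 within HBEGF P1 cultures and 0.98 to 0.994 within fresh P1 cells, and 0.951 to 0.968 between these groups. Of the 1261 calls, 883 were kept without any 1 of the 6 arrays. Permuting 3 against 3 arrays exactly, two-sided, gives no p below 0.1, so adjusted p values below come from limma. RNA came from whole cell samples, so fewer cells of a type and less RNA per cell cannot be told apart in any result that follows.

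**Figure D1:**
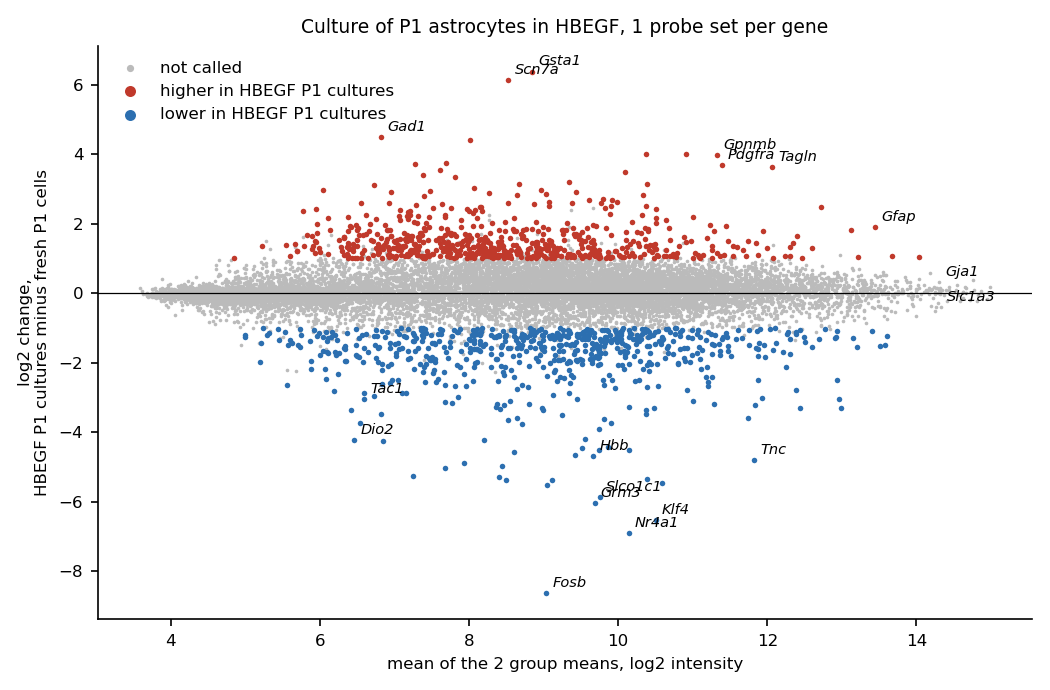
Each point is 1 gene, with the mean of the group means on the x axis (log2 intensity) and the log2 change of HBEGF P1 cultures minus fresh P1 cells on the y axis. Of 14217 genes, 622 were called higher (red) and 639 lower (blue), and the falls extend further, to -8.63 for Fosb against 6.38 for Gsta1.

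Of 36 gene lists, that of immediate-early transcription factors held the highest share of called members: 22 of 25 were lower and 0 higher in HBEGF P1 cultures, with a median log2 change of -3.30 against 0.03 for all genes. These factors include the Fos and Jun families, which form AP-1, the zinc finger factors of the Egr and Klf families and the orphan nuclear receptors of the Nr4a family. The promoters of 4 of them are shown first, because they hold the elements through which such genes are classically induced: the CArG box, which binds serum response factor, and the cAMP response element TGACGTCA, which binds CREB and ATF proteins. Of the 25 genes, 16 had a promoter in the RefSeq table (rat assembly GRCr8), and the 250 bases before the start of transcription were searched on both strands, on which either motif reads the same. A CArG box lay in 4 of the 16 (25%), Egr1, Egr2, Klf6 and Srf, against 501 of 33469 promoters (1.5%). The cAMP response element lay in 3 of the 16 (18.8%), Ier2, Jund and Maff, against 531 of 33469 (1.59%). A match describes the letters and is not a shown binding site. The list holds genes classically induced through these elements, so its higher shares are not a result of the arrays. It was reduced to 1 promoter per gene, and the 33469 promoters were not. In the sequences below, all on the plus strand and read 5′ to 3′, capitals mark CArG boxes in Egr1 (chr18:26736828-26737077) and Srf (chr9:21923826-21924075) and the cAMP response element in Ier2 (chr19:40399123-40399372) and Maff (chr7:112792537-112792786).
Egr1: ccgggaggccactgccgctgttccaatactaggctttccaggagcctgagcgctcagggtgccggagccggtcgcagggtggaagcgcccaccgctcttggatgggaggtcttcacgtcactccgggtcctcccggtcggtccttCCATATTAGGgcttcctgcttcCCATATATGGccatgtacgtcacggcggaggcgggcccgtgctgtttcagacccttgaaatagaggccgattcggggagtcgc
Srf: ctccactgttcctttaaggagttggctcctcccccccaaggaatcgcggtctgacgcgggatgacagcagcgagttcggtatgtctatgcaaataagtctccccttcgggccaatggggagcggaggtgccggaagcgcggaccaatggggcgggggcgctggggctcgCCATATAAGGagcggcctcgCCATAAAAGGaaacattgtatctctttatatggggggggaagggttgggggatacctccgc
Ier2: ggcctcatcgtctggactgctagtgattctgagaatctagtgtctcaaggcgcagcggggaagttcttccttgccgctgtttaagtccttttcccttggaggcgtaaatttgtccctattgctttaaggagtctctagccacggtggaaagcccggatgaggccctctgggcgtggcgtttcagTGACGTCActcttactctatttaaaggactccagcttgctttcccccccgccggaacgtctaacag
Maff: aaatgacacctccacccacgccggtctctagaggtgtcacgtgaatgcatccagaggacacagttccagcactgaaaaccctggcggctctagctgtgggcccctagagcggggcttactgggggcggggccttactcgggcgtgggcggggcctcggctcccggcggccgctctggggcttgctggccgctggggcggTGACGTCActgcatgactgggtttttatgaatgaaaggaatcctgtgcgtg

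Fosb, a partner of Jun proteins in AP-1, stood at 4.78, 4.79 and 4.58 in HBEGF P1 cultures, against 13.41, 13.33 and 13.31 in fresh P1 cells. This was the largest change of any gene, a log2 change of -8.63 ± 0.15 (SE, n = 3 each; limma adjusted p = 2.78e-16). Among the other AP-1 members, Fos (-3.29), Jun (-2.50), Junb (-4.42), Fosl2 (-2.62) and Fosl1 (-1.42) were also called lower, the last of these lost without HBEGF replicate 2 or fresh replicate 2 (adjusted p up to 0.0609). Egr1, whose promoter holds a pair of CArG boxes, had 11.54, 11.67 and 11.11 in HBEGF P1 cultures, against 14.43, 14.67 and 14.35 in fresh P1 cells (-3.04, adjusted p = 0.000628). That is an 8.23-fold lower signal in the cultures. Srf itself, the factor that binds CArG boxes, had 10.08, 10.02 and 10.08 in HBEGF P1 cultures, against 12.36, 12.61 and 12.45 in fresh P1 cells (-2.41, adjusted p = 1.66e-07). Ier2, whose promoter holds the cAMP response element, fell by 3.59 (adjusted p = 5.63e-12) and Maff, a small Maf protein with the same element, by 4.96 (adjusted p = 2.57e-08). Jund, which holds that element too, differed by -0.95 (adjusted p = 0.0125), under the fold limit.

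The Nr4a receptors, which act without a known ligand, fell together. Nr4a1 had 6.81, 6.69 and 6.58 in HBEGF P1 cultures, against 13.62, 13.58 and 13.56 in fresh P1 cells, while Nr4a2 (-5.35) and Nr4a3 (-4.66) fell less. Klf4, a factor that restrains proliferation in many tissues, had 7.97, 7.12 and 6.62 in HBEGF P1 cultures, against 13.95, 13.57 and 13.79 in fresh P1 cells. The stress-induced factor Atf3 had 8.16, 7.18 and 8.26 in HBEGF P1 cultures, against 13.20, 13.45 and 13.30 in fresh P1 cells. Groups did not overlap for any of these genes, and the 3 arrays of fresh P1 cells lay closer together than those of the cultures for Klf4 and Atf3. Klf6 fell by 3.31, Egr2 had a change of -3.28 and Ier3 one of -3.30, while Klf10 (-1.51) and Egr4 (-1.70) had smaller falls. Egr3 was not called, at 5.82 ± 0.10 in HBEGF P1 cultures and 5.90 ± 0.04 in fresh P1 cells (SD, n = 3 each). Other probe sets of Fos (-0.06), Egr2 (-1.01) and Egr4 (-0.06) were not called, so the falls of these genes rest on 1 probe set each. Klf2 (-5.37) had 1 further probe set that fell (-4.99) and 3 that were not called (-0.67, -0.31 and -0.06). The summed intensity of the list was 22977 to 26040 in HBEGF P1 cultures, against 195598 to 210252 in fresh P1 cells. The part of dissociation and panning in these falls was not tested. Arc, the activity-regulated cytoskeletal protein of neurons that is also an immediate-early gene, had 6.60, 6.11 and 6.25 in HBEGF P1 cultures, against 10.52, 11.37 and 10.80 in fresh P1 cells (-4.58, adjusted p = 5.76e-08).

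**Figure D2:**
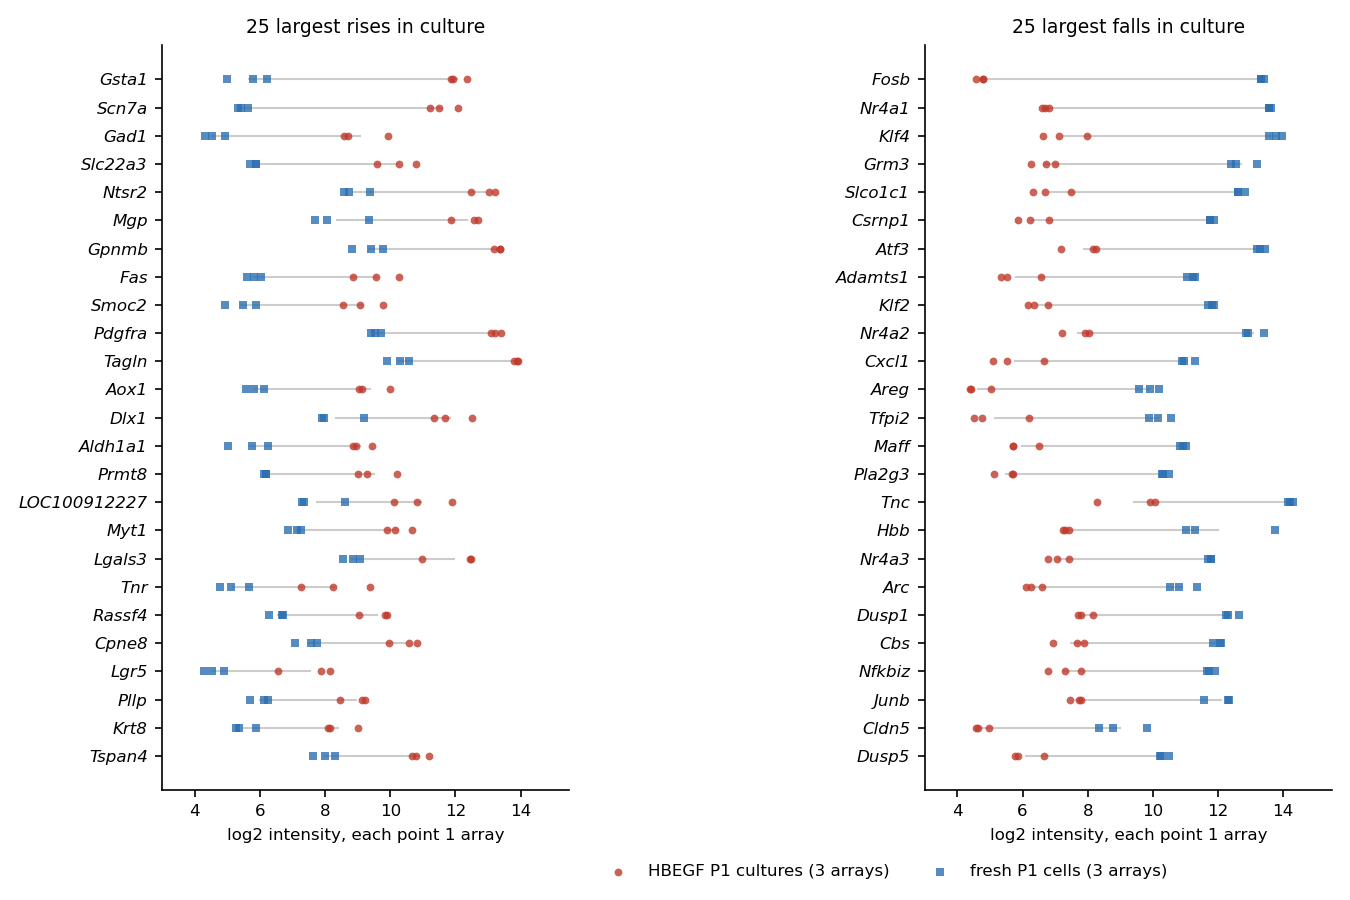
Levels (log2 intensity) of the 25 largest rises and the 25 largest falls among called genes without overlap, with each point 1 array of HBEGF P1 cultures (red circles) or fresh P1 cells (blue squares). Among the falls, the 3 arrays of fresh P1 cells nearly coincide for Fosb and Nr4a1, whereas for Hbb they lie at 11.28, 11.02 and 13.74.

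Among genes that damp or feed EGFR and MAPK signalling, more fell than rose in the cultures that received an EGFR ligand. Of 24 such genes 6 fell (25%) and 1 rose (4.17%), against 4.49% and 4.38% of all genes, with a median log2 change of -0.78. The dual-specificity phosphatases, which remove phosphate from MAP kinases, gave the largest falls after Areg. Dusp1 had 7.80, 7.69 and 8.15 in HBEGF P1 cultures, against 12.26, 12.30 and 12.64 in fresh P1 cells, and Dusp5 had 6.66, 5.85 and 5.76, against 10.23, 10.48 and 10.24. Dusp2 (-1.87) and Spry1 (-2.27), a Sprouty inhibitor of receptor tyrosine kinases, were lower as well. Dusp6, the phosphatase specific for ERK, was at 10.76, 10.83 and 10.19 in HBEGF P1 cultures, against 12.03, 11.58 and 11.55 in fresh P1 cells, without overlap but not called (-1.13, adjusted p = 0.209). Spry4 had -1.59 (adjusted p = 0.0643) and Spry2 -0.70 (adjusted p = 0.274). Lrig1, a membrane protein that promotes the removal of EGFR, fell by 1.55 (adjusted p = 3.69e-05).

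Of the EGFR ligands, amphiregulin (Areg) had 5.04, 4.39 and 4.43 in HBEGF P1 cultures, against 10.18, 9.92 and 9.56 in fresh P1 cells (-5.27, adjusted p = 1.1e-06). Tgfa, which encodes TGF-alpha, went the other way, with 8.67, 7.68 and 7.35 in HBEGF P1 cultures, against 6.72, 6.32 and 6.17 in fresh P1 cells (1.49, adjusted p = 0.000647). Ereg (-0.10) and Btc (-0.07) were not called. Hbegf itself ranged widely among the cultures, between 6.95 and 8.91, with means of 7.97 ± 0.98 in HBEGF P1 cultures and 8.46 ± 0.40 in fresh P1 cells (SD, n = 3 each), and its change of -0.49 (adjusted p = 0.635) became 0.02 without HBEGF replicate 2. Egfr had 12.61, 12.95 and 12.25 in HBEGF P1 cultures, against 12.07, 11.77 and 11.43 in fresh P1 cells. Its groups did not overlap, but the change of 0.84 (adjusted p = 0.03) was under the fold limit and passed it without HBEGF replicate 3 (1.02) or fresh replicate 1 (1.00). Rises in this list numbered 2 in each of these same left-out sets.

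Inhibitors of NF-kappaB and several chemokines, which are induced quickly by inflammatory stimuli, were lower in the cultures. In the list of complement, chemokine and cytokine genes 0 of 32 rose and 8 fell, with a median of -0.89. Nfkbia, the inhibitor that holds NF-kappaB in the cytoplasm, had 10.28, 10.13 and 10.84 in HBEGF P1 cultures, against 13.25, 13.47 and 13.57 in fresh P1 cells (-3.01, adjusted p = 2.89e-06). The deubiquitinase Tnfaip3, another brake on this pathway, fell by 3.52 (adjusted p = 1e-07), and Nfkbiz by 4.47 (adjusted p = 8.38e-09), although a second probe set of Nfkbiz gave 0.06. The neutrophil chemokine Cxcl1 had 6.66, 5.10 and 5.51 in HBEGF P1 cultures, against 10.89, 10.97 and 11.28 in fresh P1 cells. Ccl3, a chemokine mainly of myeloid cells, fell by 2.11 (adjusted p = 0.00948). Ccl2 split the cultures, at 10.91, 5.68 and 8.42, against 9.46, 9.88 and 9.60 in fresh P1 cells, and was not called (adjusted p = 0.519). Without fresh replicate 2 only 4 members of this list fell, and with the replicate number as a block 5 rose. Rises numbered 1 when each gene was represented by its probe set of largest SD, and 2 with dim probe sets left out. Microglia and macrophage markers had a summed intensity of 1174 to 1342 in HBEGF P1 cultures, against 1830 to 2485 in fresh P1 cells. Of the 22, 2 were called lower (9.09%, against 4.49% of all genes), Cd14 (-1.88) and Lyn (-1.58), while 20 were not called. The Lyn call was lost without HBEGF replicate 1 or fresh replicate 2 or 3 (adjusted p up to 0.0761), and with the replicate block 7 were lower. The defining microglial genes Aif1 (6.03, 6.07 and 6.08 in HBEGF P1 cultures, against 5.98, 5.93 and 5.95 in fresh P1 cells) and Cx3cr1 (means of 6.19 in HBEGF P1 cultures and 6.31 in fresh P1 cells) were not called. Another probe set of Aif1 gave -1.28 and was not called (adjusted p = 0.275). P2ry12, a further marker of this list, was not called at its main probe set (-0.67, adjusted p = 0.132). Its other probe set was called lower (-1.40, adjusted p = 0.0124). The part of microglia and macrophages in the chemokine values was not tested.

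Several genes with which astrocytes sense and clear transmitters fell in culture, and a few rose. Of 25 transmitter receptor genes 6 fell (24%) and 2 rose (8%), against 4.49% and 4.38% of all genes. Grm3, the metabotropic glutamate receptor of astrocytes, had 6.99, 6.25 and 6.73 in HBEGF P1 cultures, against 13.19, 12.55 and 12.39 in fresh P1 cells, a log2 change of -6.05 ± 0.33 (SE; adjusted p = 1.6e-09). The GABA receptor subunits Gabra2 (-2.98), Gabrb1 (-2.05) and Gabbr2 (means of 7.94 in HBEGF P1 cultures and 9.44 in fresh P1 cells) were lower, the last through 1 of its probe sets while another gave -0.14. The cannabinoid receptor Cnr1 had 9.46, 9.24 and 9.58 in HBEGF P1 cultures, against 11.52, 11.20 and 11.47 in fresh P1 cells (-1.97, adjusted p = 0.00132). Ntsr2, a neurotensin receptor found on astrocytes, ran opposite, with 13.23, 12.47 and 13.04 in HBEGF P1 cultures, against 8.59, 8.72 and 9.39 in fresh P1 cells (4.02, adjusted p = 0.00015). The other rise, of the adrenergic receptor Adra2a (1.31, with a second probe set at 0.10), was lost without HBEGF replicate 1 or 3 or fresh replicate 2 or 3 (adjusted p up to 0.102), which left 1 rise.

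Among 20 amino acid transporters 5 fell and 3 rose, with a median of -0.42. Slc1a2, the glutamate transporter GLT-1, had 6.94, 6.79 and 6.73 in HBEGF P1 cultures, against 8.10, 8.36 and 8.28 in fresh P1 cells (-1.43, adjusted p = 6.17e-05), although its second probe set was not called (-0.34). Slc1a3, the transporter GLAST, had 14.08, 14.08 and 14.21 in HBEGF P1 cultures, against 14.51, 14.53 and 14.53 in fresh P1 cells (-0.41, adjusted p = 0.19). Slc1a1, the transporter EAAC1 that neurons use most, rose by 1.16 (adjusted p = 0.00322). Slc7a10, which carries serine and glycine, had 8.04, 7.95 and 8.14 in HBEGF P1 cultures, against 10.02, 10.09 and 10.68 in fresh P1 cells. The GABA transporter Slc6a11 fell by 1.71. The glutamine carrier Slc38a5 was lower too, with means of 5.74 ± 0.24 in HBEGF P1 cultures and 7.23 ± 0.58 in fresh P1 cells (SD, n = 3 each). Slc38a1, another glutamine carrier, rose by 1.73 (adjusted p = 0.000765), while 2 other probe sets gave 0.09 and -0.12, and Slc6a15, a carrier of neutral amino acids, by 2.44 (adjusted p = 0.00378).

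Ion handling was marked by a single large rise. Scn7a, which encodes an atypical sodium channel that senses extracellular sodium, had 11.21, 11.51 and 12.08 in HBEGF P1 cultures, against 5.43, 5.32 and 5.62 in fresh P1 cells (6.14 ± 0.56, SE; adjusted p = 7.51e-07). In the same list 4 of 24 fell. The potassium channel subunit Kcnd2 had 8.14, 7.67 and 7.89 in HBEGF P1 cultures, against 11.15, 10.50 and 10.70 in fresh P1 cells (-2.88), and its auxiliary subunit Kcnip1 fell by 2.36 at 1 probe set, with 2 others at -0.95 and 0.05 that were not called. The bicarbonate cotransporter Slc4a4 fell by 1.25 (adjusted p = 8.93e-06). The water channel Aqp4 had 14.21, 13.88 and 14.13 in HBEGF P1 cultures, against 13.82, 13.59 and 13.86 in fresh P1 cells (0.32, adjusted p = 0.439).

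The carrier and the activating enzyme of thyroid hormone fell, while the retinoid enzyme Aldh1a1 rose. Slco1c1, the carrier OATP1C1 that takes thyroxine into astrocytes, had 6.31, 6.69 and 7.48 in HBEGF P1 cultures, against 12.83, 12.60 and 12.61 in fresh P1 cells. Dio2, the deiodinase that turns thyroxine into active hormone, had 4.31, 4.29 and 4.47 in HBEGF P1 cultures, against 8.52, 8.62 and 8.58 in fresh P1 cells, and its change of -4.22 ± 0.16 (SE) had an adjusted p of 1.76e-11. Thrb, a nuclear receptor of the hormone, rose at 2 of its 4 probe sets, by 1.45 (adjusted p = 0.00285) and 1.33 (adjusted p = 0.00712), while the others gave 0.54 and -0.06 and were not called. Aldh1a1, which makes retinoic acid, had 8.96, 8.86 and 9.43 in HBEGF P1 cultures, against 5.02, 5.76 and 6.25 in fresh P1 cells (3.40, adjusted p = 0.000996). Over the 22 genes of this list 3 rose and 3 fell.

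Many genes of dividing cells were lower in HBEGF P1 cultures. Of 39 cell cycle genes 18 fell and 0 rose, with a median of -1.09. Birc5, a protein of the chromosomal passenger complex, had 8.31, 8.63 and 9.14 in HBEGF P1 cultures, against 10.61, 10.59 and 10.57 in fresh P1 cells (-1.90, adjusted p = 0.00219). The mitotic kinesin Kif11 had 8.40, 8.62 and 9.27 in HBEGF P1 cultures, against 10.95, 10.63 and 10.28 in fresh P1 cells. Mki67, a marker of cells in cycle, fell by 1.76 and the cyclins Ccnb2 and Ccna2 by 1.79 and 1.54. For these genes the third HBEGF array was the closest to the fresh cells. The mean log2 level of the list was 9.32, 9.56 and 10.02 in HBEGF P1 cultures, against 10.76, 10.66 and 10.61 in fresh P1 cells. Without HBEGF replicate 1, 10 genes fell instead of 18. In P7 cells the same list had 0 falls and 2 rises in culture, with a median of -0.06, but the P7 cultures stood far apart. Their mean levels of the list were 9.25, 11.04 and 10.47 in HBEGF P7 cultures, against 10.21, 10.04 and 10.49 in fresh P7 cells, so replicate 1 lay below every fresh array and replicate 2 above. Tested gene by gene, the response differed between the ages for 1 of the 39, the replication helicase Mcm2 (adjusted p = 0.0482), and that call was lost when any 1 of 10 arrays was left out (adjusted p up to 0.12) and with the replicate block (adjusted p = 0.241).

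Of 19 genes of cholesterol synthesis and its control, 4 fell and 0 rose in HBEGF P1 cultures. Insig1, which retains the sterol-sensing complex in the endoplasmic reticulum, had 11.37, 11.76 and 11.15 in HBEGF P1 cultures, against 13.20, 13.21 and 13.18 in fresh P1 cells. The isomerase Idi1 (-1.55), the sterol carrier Stard4 (-1.67) and the reductase Hsd17b7 (-2.06) were the other falls, and Stard4 had a further probe set that was called (-2.45, adjusted p = 5.83e-07) and 1 that was not (-0.30). Sqle, a rate-controlling enzyme, had 11.58, 11.95 and 11.66 in HBEGF P1 cultures, against 12.42, 12.69 and 12.66 in fresh P1 cells (-0.86, adjusted p = 0.000558), under the fold limit. The list median was -0.75, and its mean level was 10.67, 10.73 and 10.64 in HBEGF P1 cultures, against 11.43, 11.52 and 11.60 in fresh P1 cells, without overlap.

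**Figure D3:**
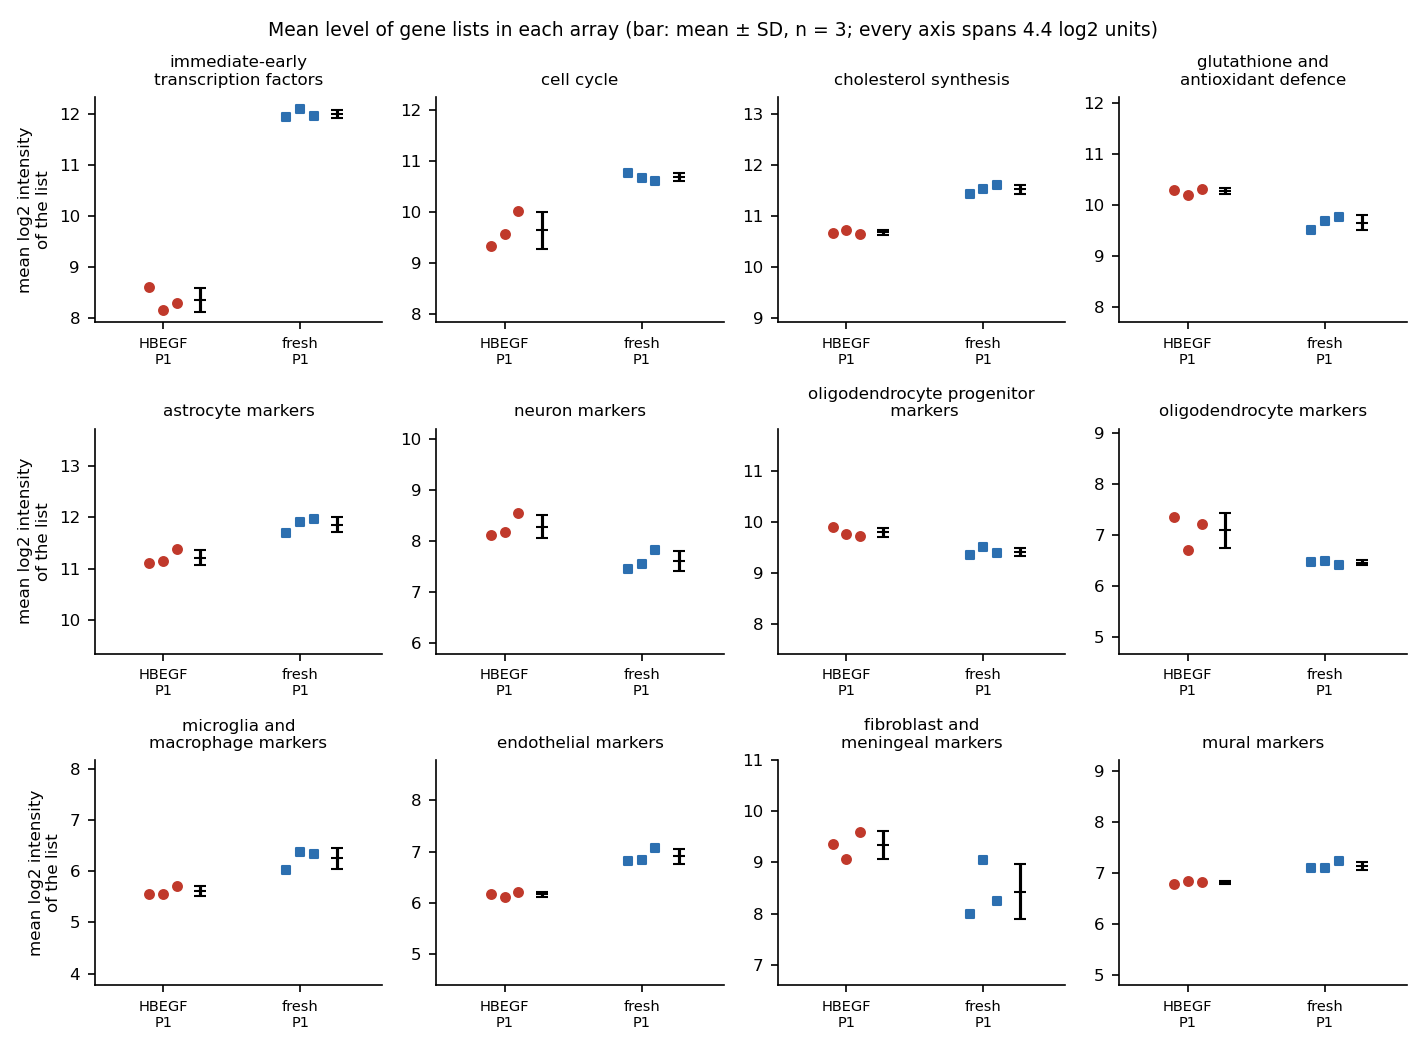
Mean level (log2 intensity) of 12 gene lists in each array of HBEGF P1 cultures (left, red circles) and fresh P1 cells (right, blue squares), with mean ± SD of 3 arrays beside the points. The groups do not overlap for any of the 12 lists. For fibroblast and meningeal markers the fresh array at 9.04 almost reaches the lowest culture, at 9.06.

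Detoxifying enzymes rose more often than they fell. Of 37 glutathione and antioxidant genes 8 were higher and 1 lower, with a median of 0.42. Gsta1, a glutathione transferase, had 12.34, 11.85 and 11.93 in HBEGF P1 cultures, against 5.00, 5.78 and 6.20 in fresh P1 cells, which was the largest rise of any gene (6.38 ± 0.34, SE; adjusted p = 1.35e-09). Its probes may not separate it from close paralogs. Gstp1, the pi-class enzyme, had 14.12, 14.01 and 13.95 in HBEGF P1 cultures, against 12.05, 12.18 and 12.39 in fresh P1 cells (1.82, adjusted p = 4.77e-06). Gclc, the catalytic subunit for the first step of glutathione synthesis, rose by 1.37, heme oxygenase Hmox1 by 1.53, the peroxiredoxin Prdx6 by 1.29 and the microsomal transferase Mgst1 by 1.62. Nqo1, a quinone reductase, had 12.28, 12.62 and 12.67 in HBEGF P1 cultures, against 11.30, 11.78 and 11.73 in fresh P1 cells (0.92, adjusted p = 0.0144), just under the fold limit. Aox1, an aldehyde oxidase outside this list, had 9.14, 9.99 and 9.03 in HBEGF P1 cultures, against 5.57, 5.83 and 6.12 in fresh P1 cells (3.55). Slc22a3, a carrier of organic cations and monoamines, had 10.28, 10.78 and 9.58 in HBEGF P1 cultures, against 5.70, 5.87 and 5.87 in fresh P1 cells (4.40). Gpx3, a secreted glutathione peroxidase, was the single fall (-1.17, adjusted p = 0.00924).

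Targets of p53 and stress genes split. Fas, the death receptor, had 9.57, 8.85 and 10.27 in HBEGF P1 cultures, against 5.83, 5.60 and 6.04 in fresh P1 cells. Another Fas probe set rose as well (2.80, adjusted p = 7.88e-08), and 1 more gave 0.15 and was not called. Phlda3 (1.90), Ccng1 (1.62) and Aen (1.35), all p53 targets, rose as well, though another Aen probe set (0.72) was not called. Cdkn1a, the cell cycle inhibitor p21, did not change by the test (-0.29, adjusted p = 0.552). Mdm2, also a p53 target, was under the fold limit at its main probe set (-0.75, adjusted p = 0.000201). Other probe sets of Mdm2 were called lower (-1.09, adjusted p = 0.022, and -1.11, adjusted p = 0.0183). The falls at main probe sets were those of Gadd45b, Plk2 (-2.93), Tnfrsf21 (-1.84) and the survival factor Mcl1 (-1.48). Gadd45b had 7.89, 6.76 and 7.70 in HBEGF P1 cultures, against 11.75, 11.51 and 11.69 in fresh P1 cells. These 8 calls, 4 each way, came from 23 genes. In the integrated stress response list 3 of 25 rose and 5 fell. Atf4, its central factor, fell by 1.10 (adjusted p = 0.000182) and Gdf15 by 2.53, whereas Atf5 rose by 1.86 (adjusted p = 5.24e-05). Asns, which makes asparagine (1.56), and Nupr1 (2.25) were called too, but Nupr1 was lost without HBEGF replicate 1 or 3 or fresh replicate 3 and Asns without any 1 array but HBEGF replicate 2 (adjusted p up to 0.086), leaving 1 rise without either HBEGF replicate 1 or 3 or fresh replicate 3. Cbs, which joins homocysteine with serine and is high in astrocytes, had 6.93, 7.68 and 7.88 in HBEGF P1 cultures, against 12.08, 11.85 and 12.07 in fresh P1 cells (-4.50, adjusted p = 1.6e-09).

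Chaperones moved in both directions. The small heat shock protein Cryab had 11.90, 10.76 and 11.89 in HBEGF P1 cultures, against 9.36, 9.54 and 9.57 in fresh P1 cells (2.03, adjusted p = 0.000282). The inducible Hspa1a, whose probes may not separate it from Hspa1b, had 6.63, 6.30 and 6.93 in HBEGF P1 cultures, against 9.42, 9.32 and 9.17 in fresh P1 cells (-2.68). Hspa5, the chaperone of the endoplasmic reticulum, fell by 1.49 with little spread (SE 0.09). No other gene of the 15 in the list was called at its main probe set, and with the replicate block 3 fell. A second probe set of Dnajb1 was called lower (-1.27, adjusted p = 0.0147), while its main probe set gave -0.36.

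Filament, annexin and S100 genes formed the list with the highest count of rises, 10 of 34, with 4 falls. Gfap, the glial filament protein, had 14.46, 14.20 and 14.53 in HBEGF P1 cultures, against 12.03, 12.76 and 12.70 in fresh P1 cells (1.90, adjusted p = 0.000134). Vim, the other main filament of young astrocytes, had 14.73, 14.53 and 14.97, against 14.54, 14.68 and 14.55 in fresh P1 cells (0.15, adjusted p = 0.42). Tagln, an actin-binding protein of smooth muscle, had 13.90, 13.79 and 13.92 in HBEGF P1 cultures, against 10.29, 10.56 and 9.90 in fresh P1 cells (3.62). The membrane-binding annexins Anxa1 (2.50), Anxa5 (2.41) and Anxa2 (2.16) rose together with S100a11 (1.87) and S100a6 (1.36). Culture replicate 2 was the lowest of the cultures for all 3 annexins, with Anxa2 at 11.70, 10.73 and 12.34, against 8.71, 10.01 and 9.58 in fresh P1 cells, and a second probe set of Anxa2 gave 0.17. The falls included Lmna, a nuclear lamin, at 9.90, 9.40 and 10.07, against 11.37, 12.22 and 11.86 in fresh P1 cells (-2.03), and the focal adhesion protein Zyx (-1.25).

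Genes used as signs of reactive astrocytes did not move as a block, with 4 of 25 higher and 6 lower. Ceruloplasmin (Cp), a copper-carrying ferroxidase, had 11.49, 10.96 and 11.02 in HBEGF P1 cultures, against 8.60, 8.81 and 7.95 in fresh P1 cells (2.70, adjusted p = 1.65e-05), and the guanylate-binding protein Gbp2 rose by 2.60. Socs3, an inhibitor of cytokine signalling, fell by 2.56, the factor Stat3, which induces it, by 1.43 and the membrane protein Emp1 by 3.18. Lcn2 (0.77, adjusted p = 0.484) and C3 (1.37, adjusted p = 0.267), often used as markers of the reactive state, were not called, and in both culture replicate 2 was the lowest, as for C3 at 7.34, 5.87 and 7.65, against 5.86, 5.29 and 5.60 in fresh P1 cells. The rises numbered 2 without HBEGF replicate 1 or 3 or fresh replicate 1 or 2, and 7 with the replicate block. In the interferon and antigen presentation list 5 of 27 rose and 1 fell. Gbp2 again and Ifitm3, Psmb8, Ifi27 and Psmb9 made up the rises, all with culture replicate 2 below the other cultures, for Ifitm3 at 12.94, 11.37 and 12.94, against 10.40, 10.58 and 10.47 in fresh P1 cells. Those rises numbered 2 without HBEGF replicate 1 or 3 or fresh replicate 1, and 3 without fresh replicate 2 or 3. Irf1, a transcription factor of the interferon response, fell by 1.62 (adjusted p = 0.000134).

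In the matrix and at the cell surface falls outnumbered rises, but not among matrix proteases and inhibitors. Of 39 matrix genes 8 fell and 3 rose, with a median of 0.05. Of 31 matrix proteases and inhibitors 4 rose and 2 fell, with a median of -0.29. Falls of the protease list numbered 1 without HBEGF replicate 3 or fresh replicate 1. Tenascin-C (Tnc), a matrix protein of immature astrocytes, had 9.91, 8.28 and 10.07 in HBEGF P1 cultures, against 14.31, 14.20 and 14.16 in fresh P1 cells (-4.80, adjusted p = 3.19e-05). Tnr, the related tenascin-R, which oligodendrocyte lineage cells make, had 9.39, 7.25 and 8.23 in HBEGF P1 cultures, against 5.65, 4.76 and 5.11 in fresh P1 cells (3.12). The matricellular Ccn1, a serum-inducible gene, had 8.34, 7.45 and 8.33 in HBEGF P1 cultures, against 11.77, 12.17 and 11.38 in fresh P1 cells. Sparcl1, an astrocyte protein that promotes synapse formation, fell by 1.22 (adjusted p = 0.000375) and the link protein Hapln1 by 1.66. Mgp, the inhibitor of calcification, had 12.68, 11.85 and 12.58 in HBEGF P1 cultures, against 8.07, 9.34 and 7.69 in fresh P1 cells (adjusted p = 1.7e-05). Smoc2, a calcium-binding matrix protein, had 9.78, 9.08 and 8.54, against 4.93, 5.88 and 5.47 in fresh P1 cells (3.71), while 2 other probe sets gave 0.15 and -0.11. Of the matrix proteases, Adamts1 had 6.57, 5.51 and 5.33 in HBEGF P1 cultures, against 11.29, 11.22 and 11.05 in fresh P1 cells, and Adamts5 (1.83) and Mmp11 (1.92) rose. Tfpi2, an inhibitor of serine proteases, had 6.21, 4.50 and 4.76, against 10.16, 10.55 and 9.88 in fresh P1 cells.

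Adhesion genes had 8 falls and 1 rise among 33. Itgb5, the antigen used for panning, had 10.58, 10.70 and 10.89 in HBEGF P1 cultures, against 11.94, 12.18 and 12.05 in fresh P1 cells (-1.33, adjusted p = 0.00686). Cdh1, the epithelial cadherin, fell by 2.82 at 1 probe set, with another at -0.07, and Cdh13 fell by 1.66. Cntn1, a contactin of axons and glia, rose by 1.64 (adjusted p = 1.54e-05). The falls numbered 3 without HBEGF replicate 2 and 4 without fresh replicate 1. Of 35 axon guidance genes 9 fell and 2 rose. Epha5 (-1.96), Sema6a (-1.82) and Robo2 (-1.59), which encode guidance receptors or transmembrane semaphorins, were lower. The secreted semaphorins Sema3c, at 11.03, 10.14 and 10.80 against 8.63, 8.71 and 8.71 in fresh P1 cells, and Sema3e (1.53) were higher, and without HBEGF replicate 2 the rises numbered 4.

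Notch targets and ligands fell in part. Hey2, an effector of Notch, had 9.79, 9.80 and 9.99 in HBEGF P1 cultures, against 12.46, 12.57 and 12.58 in fresh P1 cells (-2.68, adjusted p = 1.37e-07), and the ligand Jag1 fell by 2.42. Hes5 varied within both groups, at 7.50, 9.71 and 8.80 in HBEGF P1 cultures, against 10.09, 11.42 and 11.96 in fresh P1 cells (-2.49), and a second probe set of Hes5 gave -0.18 and was not called. Dll1, a ligand that committed progenitors present to their neighbours, rose by 1.86, with culture replicate 2 the highest at 10.67. In this list of 30 progenitor and Notch genes 6 fell and 2 rose, and the second rise, Dll3 (1.04), overlapped between the groups and was lost without HBEGF replicate 2 or fresh replicate 1 or 3 (adjusted p up to 0.238), so that 1 rise was left without HBEGF replicate 2 or fresh replicate 1. Sox2, the progenitor factor that astrocytes keep, stood at 13.13, 13.14 and 13.19 in HBEGF P1 cultures, against 13.31, 13.12 and 13.24 in fresh P1 cells. Id1, a target of BMP signalling, fell by 1.84 (adjusted p = 3.71e-05), while Bmp4 had 9.94, 8.02 and 8.97, against 6.48, 6.95 and 6.16 in fresh P1 cells (2.45). Among 40 genes of growth factor signalling Bmp4 was the single rise, with 7 falls, of which Bdnf, a neurotrophin also induced by activity, was the largest (-2.68), with a second probe set at -0.28. With the replicate block 2 of this list rose.

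Of 25 engulfment and lysosome genes 2 rose (8%) and 3 fell (12%), against 4.38% and 4.49% of all genes. Gpnmb, a lysosomal glycoprotein, had 13.38, 13.37 and 13.17 in HBEGF P1 cultures, against 9.40, 9.78 and 8.83 in fresh P1 cells (3.97, adjusted p = 1.55e-05). Gas6, the bridge between dying cells and TAM receptors, rose by 2.84 at 1 probe set and by 0.90 at another, but fell by 1.14 at the remaining one (adjusted p = 0.00988), so its direction depends on the probe set. The receptor Mertk was not called (-0.46, adjusted p = 0.35), and Mfge8, which bridges to integrins, fell by 1.41 with cultures at 10.87, 12.73 and 11.80. That Mfge8 call was lost without HBEGF replicate 1 or 3 or fresh replicate 2 or 3 (adjusted p up to 0.173). Without HBEGF replicate 3 the rises numbered 4.

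**Figure D4:**
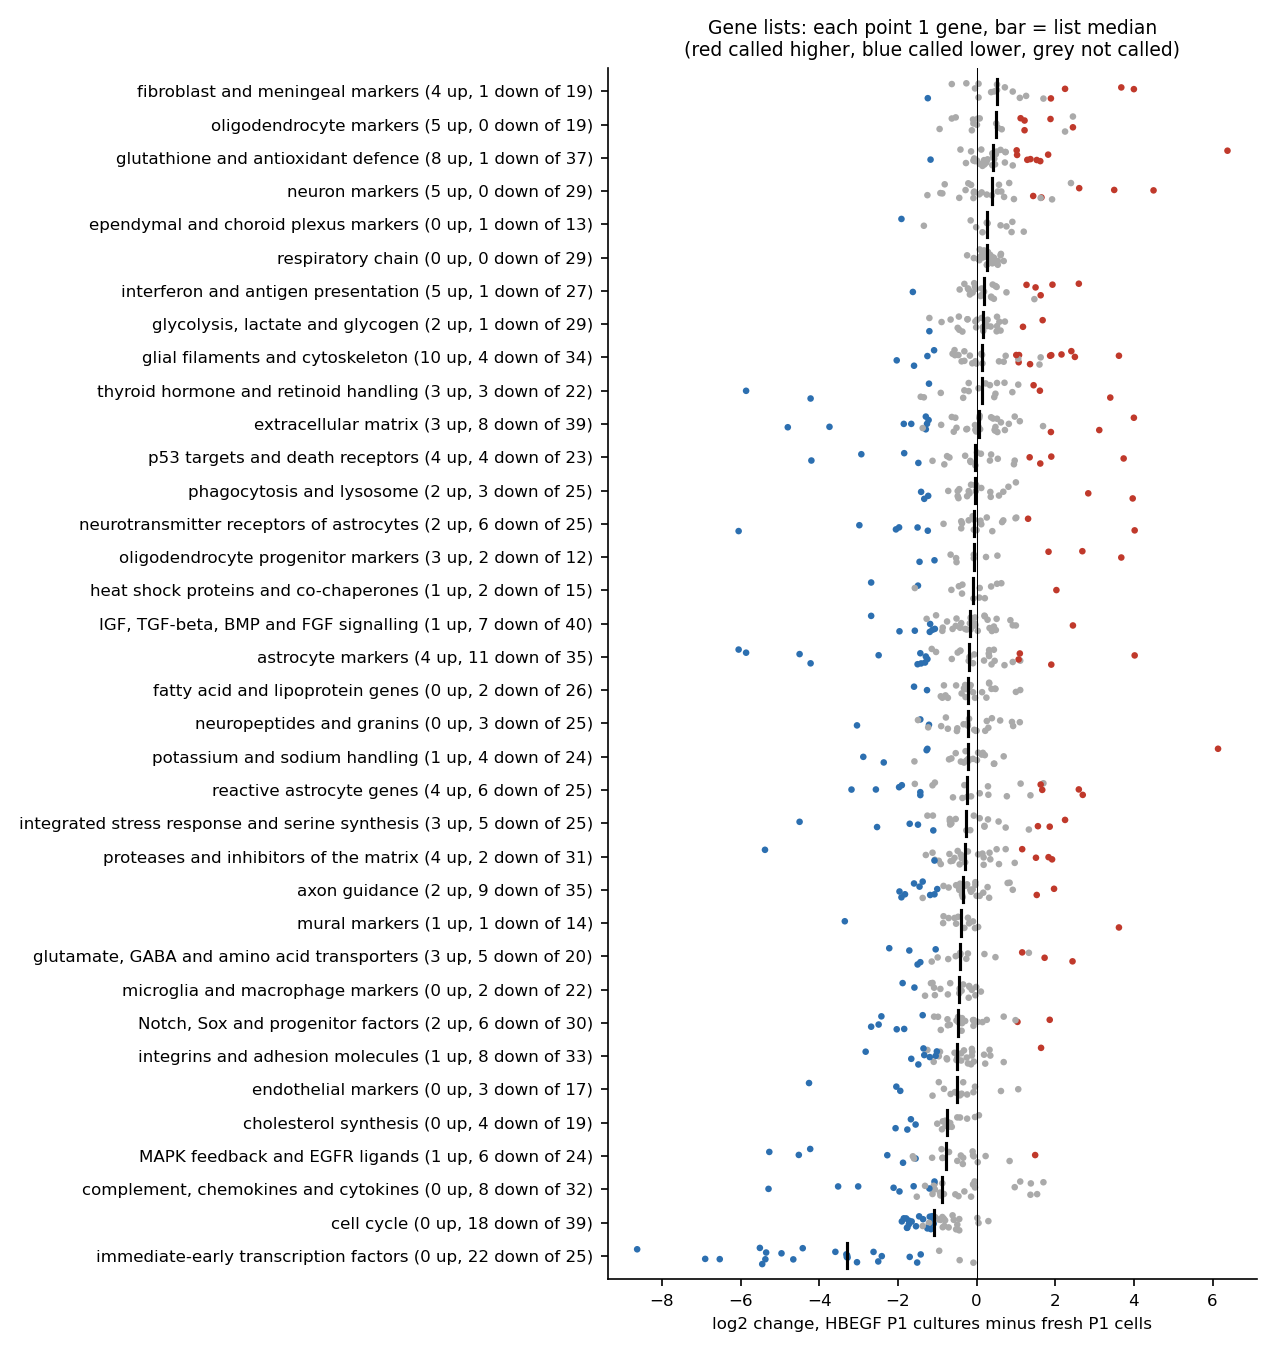
Each point is the log2 change (HBEGF P1 cultures minus fresh P1 cells) of 1 gene in 36 lists ordered by their median (black bar), with called rises in red, called falls in blue and the rest in grey. Immediate-early genes lie furthest to the left with a median of -3.30, and fibroblast and meningeal markers furthest to the right with 0.52.

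Several general astrocyte genes changed by less than the fold limit, while of 35 astrocyte markers 11 fell and 4 rose (median -0.20). Gja1, the main gap junction protein, had 14.48, 14.37 and 14.54 in HBEGF P1 cultures, against 14.14, 14.12 and 14.18 in fresh P1 cells, and Fabp7, a fatty acid carrier of young astrocytes, had 14.85, 14.82 and 14.91, against 15.04, 15.03 and 15.03. Neither met the call rule. The summed intensity of the marker list overlapped between the groups, at 268014 to 307119 in HBEGF P1 cultures, against 269267 to 300617 in fresh P1 cells, a sum carried by the brightest genes. The mean log2 level of the same list did not overlap, at 11.10, 11.15 and 11.38 in HBEGF P1 cultures, against 11.69, 11.91 and 11.97 in fresh P1 cells. Aldh1l1, the folate enzyme that marks astrocytes, had 10.89, 10.95 and 11.15 in HBEGF P1 cultures, against 12.52, 12.65 and 12.32 in fresh P1 cells, and S100b had 14.15, 14.15 and 14.32, against 12.71, 13.39 and 13.32. The S100b call of 1.07 fell under the fold limit without fresh replicate 1 (0.86), and 2 astrocyte markers rose without that array. The falls of Grm3, Slco1c1, Dio2 and Cbs given above account for the largest in this list.

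Some genes of the oligodendrocyte lineage rose in the cultures. Pdgfra, the receptor that defines oligodendrocyte progenitors, had 13.40, 13.21 and 13.09 in HBEGF P1 cultures, against 9.71, 9.40 and 9.54 in fresh P1 cells (3.68, adjusted p = 0.000826). Sox10, a factor of the whole lineage, ranged over 7.50 to 8.54 in HBEGF P1 cultures, against 5.97 to 6.10 in fresh P1 cells, and Lhfpl3 rose by 2.69. Other progenitor genes gave different values: Cspg4, which encodes NG2, had 6.07, 5.73 and 6.04 in HBEGF P1 cultures, against 6.68, 6.35 and 6.36 in fresh P1 cells (-0.52, adjusted p = 0.0804), and Olig1 changed by 0.24 (adjusted p = 0.899). In all, 3 of 12 progenitor markers rose and 2 fell, with a median of -0.07. Among the falls was Tmem100 (-1.45, adjusted p = 0.0133), also lower at another probe set (-1.33, adjusted p = 0.00208). The falls of this list numbered 0 without HBEGF replicate 2 and 1 without any of the other 5 arrays in turn. Of 19 oligodendrocyte markers 5 rose and 0 fell, among them Aspa, at 8.63, 8.13 and 8.25, against 6.36, 6.19 and 6.83 in fresh P1 cells (1.88). Mbp, the myelin basic protein, split the cultures, with 10.52, 6.68 and 10.99, against 8.46, 6.57 and 6.38 in fresh P1 cells, and was not called (adjusted p = 0.091). Mog, a late myelin gene, was at 5.25, 5.34 and 5.33, against 5.32, 5.34 and 5.22. The summed intensity of the oligodendrocyte list was 10575 to 13894 in HBEGF P1 cultures, against 6612 to 7631 in fresh P1 cells, and that of the progenitor list 34090 to 43195 against 33738 to 36225. Without HBEGF replicate 1 the oligodendrocyte rises numbered 3.

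Some genes of GABAergic neurons were higher too. Gad1, the enzyme that makes GABA, had 8.71, 8.58 and 9.93 in HBEGF P1 cultures, against 4.30, 4.51 and 4.91 in fresh P1 cells (4.50, adjusted p = 0.00217), and its second probe set gave 0.93 (adjusted p = 0.00757). Dlx1, a homeobox factor of interneurons, had 11.33, 11.68 and 12.52, against 7.89, 7.95 and 9.18 in fresh P1 cells (3.50, adjusted p = 0.0467). Dlx1 lost its call whichever of the 6 arrays was left out (highest adjusted p 0.138), and Dlx5 (2.61) without HBEGF replicate 2 or 3 or fresh replicate 1 or 2 (adjusted p up to 0.122). In each of these genes the third replicate was the highest of its group. For Dlx1 the SD was 0.61 in HBEGF P1 cultures and 0.72 in fresh P1 cells, while the SE of its change was 1.19. That SE uses the spread pooled over all groups, so a lost call does not measure the P1 arrays alone. Gad2, the second GABA enzyme, was not called, at 4.69, 4.77 and 4.99, against 4.58, 4.71 and 4.77 in fresh P1 cells. Dcx and Tubb3, genes of young neurons, did not overlap between the groups but were not called. Dcx had 10.22, 10.01 and 10.68, against 8.18, 8.15 and 8.81 in fresh P1 cells (1.92, adjusted p = 0.109), and Tubb3 had 9.60, 10.30 and 11.01, against 7.97, 8.58 and 9.46 (1.63, adjusted p = 0.269). Of 29 neuron markers 5 rose and 0 fell, with 2 rises without HBEGF replicate 3 or fresh replicate 1 or 2. Without HBEGF replicate 3 or fresh replicate 1, 1 marker fell. With the replicate block 8 rose and 1 fell. The summed intensity of the list was 24806 to 33724 in HBEGF P1 cultures, against 13798 to 16782 in fresh P1 cells. Lgr5, a receptor for R-spondins, Myt1 and Prmt8 were among the 25 largest rises as well (2.96, 3.15 and 3.34), and their relation to any of these cell types was not tested.

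Some genes of blood and vessels were lower. Hbb, a globin of red blood cells, had 7.30, 7.43 and 7.24 in HBEGF P1 cultures, against 11.28, 11.02 and 13.74 in fresh P1 cells (-4.69, adjusted p = 0.000632), so the fresh arrays differed among themselves and replicate 3 stood highest. Cldn5, the tight junction protein of brain endothelium, had 4.62, 4.56 and 4.97 in HBEGF P1 cultures, against 8.77, 8.35 and 9.83 in fresh P1 cells, again with fresh replicate 3 highest. Kdr (-1.94, with a second probe set at -0.01) and Ramp2 (-2.04) were the other falls among 17 endothelial markers, with 0 rises, or 1 with the replicate block, and Rgs5, a pericyte gene, fell by 3.35 (adjusted p = 3.17e-06). Abcc9, of the mural marker list, was not called at its main probe set (0.04). Other probe sets of Abcc9 were called lower (-2.74, adjusted p = 2.14e-05, and -1.45, adjusted p = 0.0129). The endothelial markers Pecam1 (4.42, 4.31 and 4.19 in HBEGF P1 cultures, against 4.06, 4.43 and 4.53 in fresh P1 cells) and Flt1 were not called. The summed intensity of the endothelial list was 2573 to 3203 in HBEGF P1 cultures, against 4980 to 6248 in fresh P1 cells. For mural markers it was 15756 to 16913 against 3242 to 3489, a sum dominated by Tagln, while the mean log2 level of the list was 6.79 to 6.85 in HBEGF P1 cultures, against 7.10 to 7.23 in fresh P1 cells.

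Fibroblast and meningeal markers had 4 rises and 1 fall among 19, but these include genes shared with other lists, such as Pdgfra, Mgp and Nupr1. The collagens of fibroblasts were not called, with Col1a1 at 9.10, 8.97 and 8.58 in HBEGF P1 cultures, against 8.30, 9.80 and 8.38 in fresh P1 cells, and Col3a1 at 10.88, 10.69 and 10.60, against 9.52, 11.11 and 9.99. Fresh replicate 2 was the highest fresh array for both, and for Lum (9.37) and Dcn (9.57). The summed intensity was 23966 to 32133 in HBEGF P1 cultures, against 7021 to 15649 in fresh P1 cells. Rises numbered 2 without HBEGF replicate 1 or 3 or fresh replicate 3, and falls 0 without HBEGF replicate 2 or fresh replicate 1 or 3. The part of any of these cell types in the changes above was not tested.

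The response to culture differed between P1 and P7 cells for 116 genes (0.816% of 14217), tested as the P1 response minus the P7 response. Of these 93 (0.654%) were positive and 23 (0.162%) negative. With the replicate number as a block the counts were 17 and 3, although the numbers of the P7 samples did not pair. In culture against fresh cells, 280 genes were called higher and 418 lower at both ages, and 2 in opposite directions. Omg, an oligodendrocyte myelin glycoprotein, was one of those: it rose by 1.34 in P1 cells and fell by 1.69 in P7 cells, a difference of 3.02 ± 0.27 (SE; adjusted p = 2.83e-05). The protocadherin Pcdh20 changed by 0.64 (not called) in P1 cells and by -3.42 in P7 cells, which gave the largest positive difference (4.05, adjusted p = 0.000112). In all 8 of the largest positive differences the mean of fresh P7 cells lay above that of fresh P1 cells. That gap is part of the contrast by which these genes were ranked, so it is not a separate result. Hspa1a averaged 6.62 in HBEGF P1 cultures and 9.30 in fresh P1 cells, against 6.92 in HBEGF P7 cultures and 13.30 in fresh P7 cells, so its fall was smaller in P1 cells by 3.70 (adjusted p = 0.000174; 0.0611 with the block). The co-chaperones Dnajb1 (1.09) and Dnajb4 (1.27) and the chaperone Hsph1 (1.55) had positive differences as well, which makes 4 of the 15 heat shock genes. Of these, Dnajb4 was lost when any 1 of 9 arrays was left out, Hsph1 when any 1 of 5 was and Dnajb1 without 1 array, and with the block none of the 4 was called (adjusted p of 0.0611 to 0.173). Gabbr2 (3.95), the NMDA receptor subunit Grin2c (2.97) and Slc1a2 (1.87; adjusted p = 0.0529 with the block), genes of transmitter handling, belonged to the same group: Grin2c averaged 8.40 in HBEGF P1 cultures and 8.79 in fresh P1 cells, against 8.61 in HBEGF P7 cultures and 11.97 in fresh P7 cells. Sox10 rose by 1.83 in P1 cells and was not called in P7 cells (0.37), and the difference of 1.46 was called (adjusted p = 0.0333) but lost when any 1 of 7 arrays was left out (adjusted p up to 0.0853) and with the block (adjusted p = 0.173). Prmt8, an arginine methyltransferase of neurons, rose by 3.34 in P1 cells and changed by 0.44 in P7 cells (difference 2.90, adjusted p = 0.000943).

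Negative differences mark genes whose change in culture was less positive, or more negative, in P1 cells. S100a6 averaged 8.59 in HBEGF P1 cultures and 7.23 in fresh P1 cells, against 12.25 in HBEGF P7 cultures and 7.59 in fresh P7 cells. The tropomyosin Tpm2 rose by 3.00 in P7 cells and changed by 0.57 in P1 cells (difference -2.43, adjusted p = 0.0337), a call that was lost when any 1 of 7 arrays was left out (adjusted p up to 0.103) and with the block (adjusted p = 0.0611). Penk, which encodes enkephalins, showed 10.13, 9.89 and 8.85 in HBEGF P1 cultures, against 9.76, 10.03 and 10.56 in fresh P1 cells, and rose by 3.04 in P7 cells. Its difference was lost when any 1 of 3 arrays was left out (adjusted p up to 0.0578) and with the block (adjusted p = 0.113). Dct, an enzyme of melanin synthesis, had 5.04, 5.23 and 5.20 in HBEGF P1 cultures, against 8.18, 8.03 and 7.84 in fresh P1 cells (-2.86), and a smaller fall in P7 cells (-0.70). Gfap rose by 1.90 in P1 cells and was not called in P7 cells (0.46), but this difference did not pass the test (1.44, adjusted p = 0.114), nor did that of Ntsr2 (3.23, adjusted p = 0.0946). The number of differences depends on single arrays. It was 46 positive and 4 negative without fresh P1 replicate 2, 51 and 10 without HBEGF P1 replicate 1, 54 and 10 without fresh P7 replicate 3, and 192 and 151 without HBEGF P7 replicate 1. Negative differences alone numbered 9 without HBEGF P1 replicate 2, 7 without fresh P1 replicate 3, 60 without HBEGF P7 replicate 2, and 15 and 8 without fresh P7 replicate 1 and 2 in turn.

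**Figure D5:**
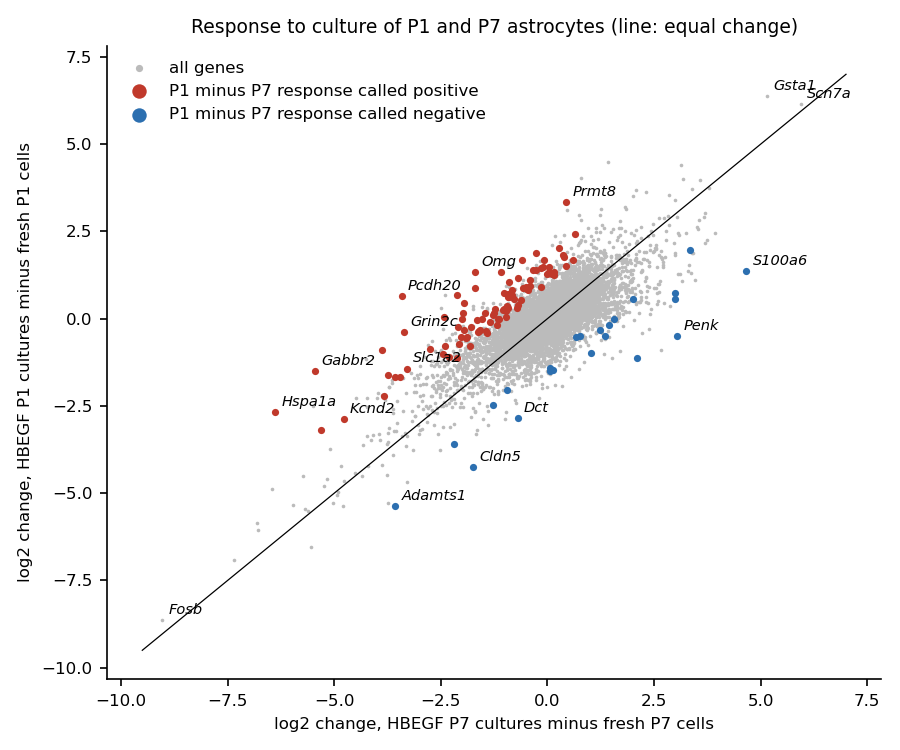
Log2 change in culture of P1 cells (y axis) against that of P7 cells (x axis) for 14217 genes, with the line of equal change. Red points are the 93 genes with a called positive difference, such as Pcdh20 (4.05), and blue points the 23 with a called negative one, such as S100a6 (-3.30).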

How the data were processed

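Affymetrix rat expression arrays were read from the table of values, which holds intensities on a linear scale. The deposited intensities were made by the authors with RMA, per the submitters' processing notes, and which software and chip definition were used is not given in the sources used here. Intensities ran from 10.025 to 37800.668 with array medians of 128.0 to 146.3, and log2 of them was used with no floor. No detection calls were used, so a low level is not read as absence, and the number of arrays limits precision. Of 31042 probe sets, 20826 carried 1 gene symbol in GEO's platform annotation, 436 several and 9780 none, and 20758 matched a gene number of RefSeq. Each of 14217 genes was represented by the probe set with the highest mean, and 4525 genes had more than 1.

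Groups were compared with limma 3.58.1 in R 4.3.3, in 1 model of 7 group means over 21 arrays (14 residual and 2.89 prior degrees of freedom), and the dependence on age was a contrast of the P1 and P7 responses. The code was tested on simulated data first. The labels call replicates biological, p-values measure the spread between them pooled over all 7 groups, and no batch is named in the sources used here. Same-numbered HBEGF P1 cultures and fresh P1 cells deviated together (correlations of 0.41, 0.24 and 0.36, against -0.32 to 0.06 for unlike numbers). The labels state no pairing, so whether the numbers pair the arrays is not settled. Every main value comes from the fit without a block. A fit with the number as a block is given where it changes a count by over 1.5 times. The P7 numbers did not pair (0.31, 0.18 and -0.18, against -0.42 to 0.32 for unlike numbers).

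Named genes are the 25 largest rises and 25 largest falls among called genes, 1 probe set each, whose arrays do not overlap, up to 10 members of any of 36 lists (864 measured genes), Hbegf, Egfr, Itgb5, S100b, Gja1, Slc1a3, Slc1a2, Aldh1l1, Aqp4 and Gfap, and the 8 largest differences of each sign between the ages. Where a list is described by more than 10 members, or a gene outside these is named, it was chosen after its values were seen. The genes, lists and comparisons were chosen with earlier results of these data known. Alternatives were fits on fewer arrays, the replicate block, a trended robust prior, a filter on dim probe sets, 2 other scalings, another choice of probe set and each array left out.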

Additional observations from a re-analysis of the deposited data

Results flagged for a closer look

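The 33 results set out here are genes named in the text or held by the gene lists whose response to culture differed between P1 and P7 cells in the limma contrast of the responses, at an adjusted p under 0.05 and a difference of at least 1. The values are the log2 change of P1 cells minus that of P7 cells. The difference was positive for 20 and negative for 13 of them, and 14 of the 33 kept it without any 1 of the 12 arrays of the 4 groups, while 19 lost it without some array. With the replicate number as a block 11 kept it. The largest positive ones were Pcdh20 (4.05), Gabbr2 (3.95), Hspa1a (3.70), Omg (3.02), Agt (2.99), Grin2c (2.97), Prmt8 (2.90) and Phactr3 (2.82). In transport and receptor genes Kcnd2 (1.90), Slc1a2 (1.87), Slc1a1 (1.86) and Slc7a10 (1.62) were positive and Slc38a5 (-1.55) negative. Heat shock genes beside Hspa1a were Hsph1 (1.55), Dnajb4 (1.27) and Dnajb1 (1.09). The other positive differences were Hapln1 (1.91), Pfkp (1.75), Ephb3 (1.55), Sox10 (1.46) and Sema4a (1.44).

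Negative differences were led by Penk (-3.54), S100a6 (-3.30), Esm1 (-3.23), Cldn5 (-2.52), Tpm2 (-2.43), Mgst2 (-2.24), Dct (-2.16) and Zfhx4 (-2.01). Matrix genes among them were Adamts1 (-1.81) and Fn1 (-1.57), and the remaining genes were Sema3c (-1.38) and Mcm2 (-1.18). Slc1a2 averaged 6.82 in HBEGF P1 cultures and 8.25 in fresh P1 cells, and 7.07 in HBEGF P7 cultures and 10.37 in fresh P7 cells. For Fn1, which encodes fibronectin, the means were 10.45 in HBEGF P1 cultures and 10.46 in fresh P1 cells, and 12.11 in HBEGF P7 cultures and 10.55 in fresh P7 cells.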

How the results depend on the processing

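The counts for P1 cultures against fresh cells (622 higher and 639 lower) stayed within 1.5 times under every alternative run: 579 to 692 higher and 616 to 725 lower under other fits, scalings, filters and probe sets, and 538 to 663 higher and 542 to 625 lower with 1 array left out. With the replicate block, 692 and 723 genes were called, and 1256 of the 1261 calls were among them. Other changes of a given list count by over 1.5 times or up from 0, with that block or with 1 array left out, stand beside the lists. The median change of all genes was 0.03, and was 0.01 after subtracting array medians and 0.04 after quantile normalization. The counts of differences between the ages (93 positive and 23 negative) were less steady. They were 17 and 3 with a replicate block, in which the numbers of P7 samples did not pair, 47 and 11 with 12 arrays only, and 36 negative after quantile normalization. With 1 array left out they ran from 46 to 192 and from 4 to 151. The extremes were the fits without fresh P1 replicate 2 (46 and 4) and without HBEGF P7 replicate 1 (192 and 151). Hbegf (-0.49) ran from -0.96 to 0.02 with 1 array left out, the highest (adjusted p = 0.99) without HBEGF P1 replicate 2, and the cause was not tested. Signals without a detection limit and 3 arrays a group bound what could be called.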

Other observations

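Against 8.87% of all genes called, 0 of 29 respiratory chain genes were called by limma (12 had an unadjusted p under 0.05), with a median log2 change of 0.26, while of 29 genes of glycolysis, lactate and glycogen 2 rose and 1 fell, and of 25 neuropeptide and granin genes 0 rose and 3 fell. Pfkp, the platelet-type phosphofructokinase, had 10.97, 10.80 and 10.46 in HBEGF P1 cultures, against 9.18, 8.89 and 9.12 in fresh P1 cells (1.68, adjusted p = 5.88e-05), and Pc, pyruvate carboxylase, fell by 1.20 (adjusted p = 0.00088). The falls of the glycolysis list numbered 2 without fresh replicate 1 and 2 with the replicate block. In the neuropeptide list 1 gene rose without HBEGF replicate 2 or fresh replicate 3, and 1 with the replicate block. Lipoprotein lipase (Lpl) had 7.09, 7.22 and 7.34 in HBEGF P1 cultures, against 8.55, 8.94 and 8.94 in fresh P1 cells (-1.59, adjusted p = 0.00771). Tac1, the precursor of substance P, had 5.00, 5.12 and 5.08 in HBEGF P1 cultures, against 7.94, 8.26 and 8.13 in fresh P1 cells (-3.04, adjusted p = 2.19e-11), and prodynorphin (Pdyn) fell by 1.43 (adjusted p = 0.00136), with a second probe set at -0.32 that was not called.

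Some large changes lie outside the lists. Pla2g3, a secreted phospholipase, had 5.11, 5.71 and 5.66 in HBEGF P1 cultures, against 10.51, 10.29 and 10.32 in fresh P1 cells (-4.88, adjusted p = 2.79e-06). Lgals3, the carbohydrate-binding galectin-3, had 12.47, 10.96 and 12.44 in HBEGF P1 cultures, against 8.55, 8.85 and 9.06 in fresh P1 cells (3.14, adjusted p = 0.00107). The keratin Krt8 averaged 8.40 ± 0.51 in HBEGF P1 cultures and 5.50 ± 0.33 in fresh P1 cells (SD, n = 3 each; 2.91). Pllp, a proteolipid of myelin membranes, had 9.12, 8.47 and 9.23 in HBEGF P1 cultures, against 5.70, 6.11 and 6.23 in fresh P1 cells (2.93). Tspan4, a tetraspanin, had 10.80, 10.67 and 11.19 in HBEGF P1 cultures, against 7.64, 8.31 and 8.01 in fresh P1 cells (2.90). Among 10216 probe sets without a single gene symbol, 293 were called higher and 349 lower (6.28%).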
